A study of Mus musculus with 32 samples.

Results

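Transcripts of 10 genes that megakaryocytes and platelets use were described in sorted mouse blood progenitors: Pf4, Ppbp, Itga2b, Itgb3, Gp9, Gp6, Gp1bb, Vwf, Treml1 and Selp. They were taken by gene symbol, and 9 of the 10 had a row among the 27728 genes of the count table. Gp1bb was not analysed here. The series measured RNA in 32 libraries from fetal liver or adult bone marrow, of progenitors gated as Lin-, cKit+ and Sca1-. It concerns the splicing factor gene U2af1 in blood-forming cells.

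The fetal livers were of stage E14.5 and carried 2 batch labels, A and B, without a statement of what a batch was. Batch A held 3 flox control libraries from U2af1(flox/flox) embryos that carried no Cre, 3 heterozygous deletion libraries from Vav1-Cre/U2af1(wt/flox) embryos and 3 homozygous deletion libraries from Vav1-Cre/U2af1(flox/flox) embryos. It also held 1 library of an embryo with Vav1-Cre alone. Batch B held 4 S34F libraries from Vav1-Cre/U2af1(wt/S34F) embryos and the other library with Vav1-Cre alone. All adults carried Mx1-Cre, rTA and tgU2AF1(WT). The adult control, in 3 libraries, was U2af1(wt/wt) and untreated, and is called untreated WT. The other adults were U2af1(flox/S34F) and received polyinosinic-polycytidylic acid (pIpC) and chow with doxycycline, of 1250 ppm for 4 libraries, 2500 ppm for 6 and 10000 ppm for 4. Vav1-Cre acts in blood cells, and Mx1-Cre is switched on by pIpC in several tissues, the marrow among them. Doxycycline turns on the wild-type U2AF1 transgene, which every adult group carried. The untreated WT mice differed from the dosed mice in genotype, pIpC and doxycycline together, so these cannot be told apart. The labels do not say that replicates came from separate animals, so p-values measure the spread between these libraries.

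Megakaryocytes are the large marrow and fetal liver cells that shed platelets. Platelets stop bleeding by sticking to von Willebrand factor and collagen, by releasing granules, and by binding fibrinogen through the integrin that Itga2b and Itgb3 encode. Megakaryocyte genes are widely known as targets of GATA and ETS family transcription factors, and some of them, such as Itga2b, are already on in progenitors. In bulk RNA of sorted cells, fewer cells of a type and less RNA per cell cannot be told apart.

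Promoters are shown for the 2 chemokine genes, the integrin gene and the receptor subunit whose transcripts are followed most closely here. The sequences are RefSeq's, on build GRCm38.p6, from 250 bases before to 50 bases after the annotated start, in the direction of the gene. Capitals mark 2 motifs on either strand. The letters GATAA, or TTATC on the opposite strand, stand for the motif of GATA factors. The letters GGAAGT, or ACTTCC on the opposite strand, stand for the motif of ETS factors. The 2 motifs do not overlap in these windows. The windows are chr5:90772185-90772484 on the plus strand for Pf4, chr5:90768268-90768567 on the plus strand for Ppbp, chr11:102469834-102470133 on the minus strand for Itga2b and chr6:87777820-87778119 on the plus strand for Gp9.
Pf4: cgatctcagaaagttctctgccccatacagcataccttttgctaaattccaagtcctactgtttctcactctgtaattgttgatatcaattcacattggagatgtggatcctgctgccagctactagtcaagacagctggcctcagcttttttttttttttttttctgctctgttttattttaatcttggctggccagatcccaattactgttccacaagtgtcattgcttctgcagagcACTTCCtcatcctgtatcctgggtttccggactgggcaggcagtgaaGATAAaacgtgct
Ppbp: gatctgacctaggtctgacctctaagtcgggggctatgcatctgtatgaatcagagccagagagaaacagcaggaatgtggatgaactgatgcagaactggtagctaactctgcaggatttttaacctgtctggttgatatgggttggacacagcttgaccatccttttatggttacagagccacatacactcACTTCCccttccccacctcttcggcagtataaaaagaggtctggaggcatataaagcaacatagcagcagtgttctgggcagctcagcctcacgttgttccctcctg
Itga2b: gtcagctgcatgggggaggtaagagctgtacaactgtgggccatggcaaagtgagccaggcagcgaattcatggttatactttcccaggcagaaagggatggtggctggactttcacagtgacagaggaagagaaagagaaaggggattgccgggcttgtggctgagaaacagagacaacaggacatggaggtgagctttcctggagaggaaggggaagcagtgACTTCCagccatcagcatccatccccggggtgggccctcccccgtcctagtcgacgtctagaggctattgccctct
Gp9: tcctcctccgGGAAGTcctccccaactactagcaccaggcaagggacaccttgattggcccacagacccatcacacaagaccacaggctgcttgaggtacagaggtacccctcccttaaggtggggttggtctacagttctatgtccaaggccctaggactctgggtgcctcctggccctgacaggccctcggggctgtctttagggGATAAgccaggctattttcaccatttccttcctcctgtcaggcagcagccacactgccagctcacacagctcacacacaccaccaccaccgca

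Of the 9 genes with counts, 7 had a promoter entry, and Vwf and Itgb3 had none. GATAA was found in 3 of the 7 promoters (Pf4, Gp9 and Gp6), against 25.4% of 32851 promoters of all genes. GGAAGT was found in 6 of the 7, all but Treml1, against 23.8% of all promoters. Pf4, Gp9 and Gp6 held both motifs, against 5.96% of all promoters. A match of letters is a description of the window and not a binding site.

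Ppbp and Pf4 encode chemokines stored in platelet alpha granules and lie beside each other on chromosome 5 of GRCm38, at 90768518 to 90770063 and at 90772435 to 90773383. Itga2b, on chromosome 11 from 102453297 to 102470122, encodes the alpha subunit of the fibrinogen receptor, and Itgb3, on the same chromosome from 104608000 to 104670476, its beta subunit. Gp9 (chromosome 6, 87778072 to 87779768) encodes a subunit of the von Willebrand factor receptor, and Gp6 (chromosome 7, 4363965 to 4397744) the collagen receptor. Vwf (chromosome 6, 125546774 to 125686679) encodes von Willebrand factor, Treml1 (chromosome 17, 48359916 to 48367176) a receptor of the alpha granule membrane, and Selp (chromosome 1, 164115264 to 164150026) the adhesion protein P-selectin, which reaches the platelet surface after activation. Itga2b overlaps the small gene Gm23563, Gp6 overlaps Gm24752 and Gm25349, and Selp overlaps Gm16548 and Gm16587 on the other strand. Whether counting used strand is not given in the sources used here, so reads of overlapping genes may have been shared. Vwf and Selp are also expressed by endothelial cells.

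Total counts ran from 26588099 to 71251200 per library. Levels below are in CPM, the count of a gene relative to the library's total count, with totals scaled by edgeR's trimmed mean of M values (TMM). Transcripts of the sort marker Kit were present in all 32 libraries, at 239 to 571 CPM in fetal and 384 to 776 CPM in adult libraries. The genotype labels were not checked against U2af1 transcripts, since that gene was not analysed here. A smallest detectable level of 3 counts per library was used, which covers counting error only.

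Compared per kilobase of exon length, the genes differed widely in level. In the flox control, Pf4 stood highest at 27.5 ± 12.6 CPM per kb (SD, n = 3), followed by Itga2b at 16.6 ± 3.12, Itgb3 at 11.1 ± 2.23 and Gp9 at 10.1 ± 1.48. Treml1 (8.06 ± 2.43) and Ppbp (7.39 ± 3.42) followed, and Vwf (1.62 ± 0.645), Selp (0.529 ± 0.261) and Gp6 (0.159 ± 0.0984) were lowest. The ranges of mean ± SD did not overlap between Itga2b and Itgb3, and they did between Pf4 and Itga2b, Itgb3 and Gp9, Treml1 and Ppbp. In untreated WT adults the order was led by Selp at 14.1 ± 2.64 CPM per kb (SD, n = 3), then Itga2b at 11.3 ± 2.12, Pf4 at 9.93 ± 5.45, Itgb3 at 6.46 ± 2.57 and Gp9 at 4.36 ± 0.734. Vwf (1.32 ± 0.241), Treml1 (0.937 ± 0.279), Ppbp (0.0861 ± 0.091) and Gp6 (0.00563 ± 0.00226) closed that order. The ranges of mean ± SD overlapped among Selp, Itga2b and Pf4.

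**Figure D1:**
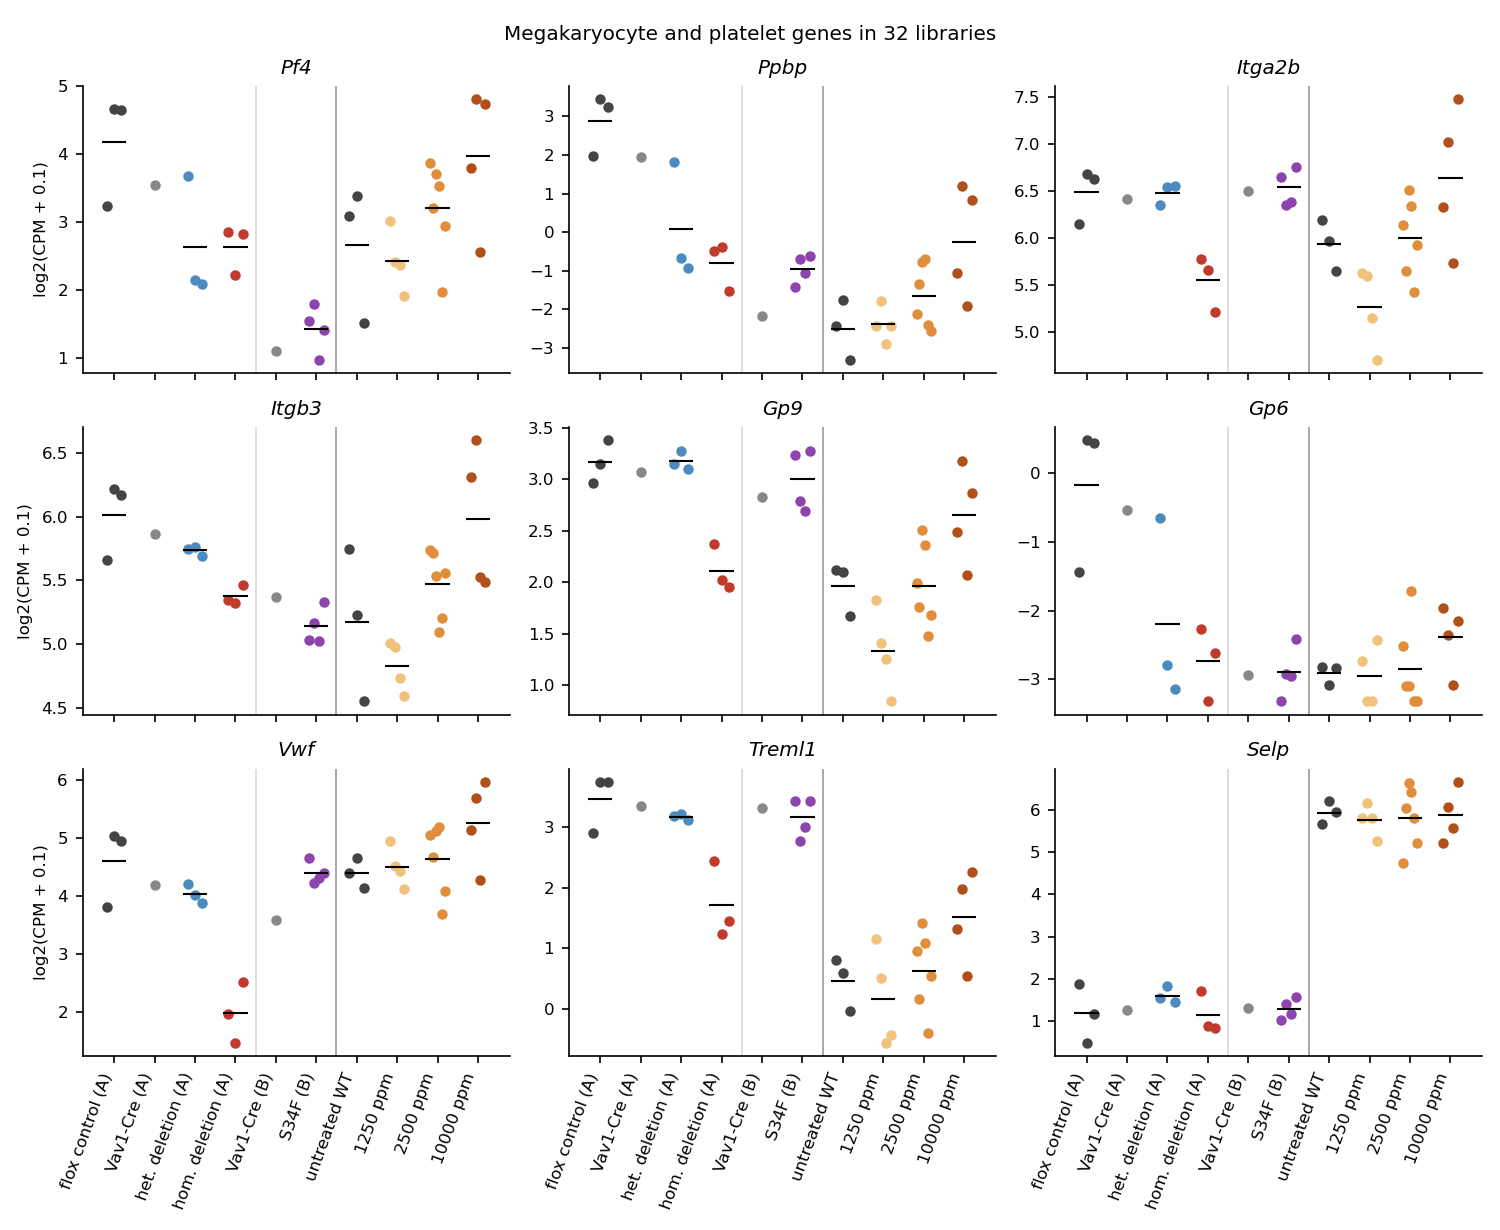
Level of each of the 9 genes in all 32 libraries, as log2(CPM + 0.1). Points are libraries, lines are group means, and letters A and B mark the fetal batches. Selp lies at 1.29 to 3.57 CPM in the fetal and at 26.7 to 102 CPM in the adult libraries, and Vwf is lowest in the 3 homozygous deletion libraries.

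Selp and Treml1 set fetal and adult libraries apart. Selp ranged from 1.29 to 3.57 CPM over the 15 fetal libraries and from 26.7 to 102 CPM over the 17 adult libraries, with no overlap. Treml1 went the other way, from 2.27 to 13.3 CPM in fetal and from 0.581 to 4.66 CPM in adult libraries. Without the 3 homozygous deletion libraries the lowest fetal value was 6.70 CPM, above every adult library. Stage, tissue and genotype changed together between fetal and adult samples, so these are levels side by side with no test.

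In the homozygous deletion, 8 of the 9 genes fell against the flox control, and Selp did not pass the test. Vwf fell most firmly, by 2.73 on the log2 scale, and Itga2b, Itgb3 and Gp9 fell by 0.97, 0.69 and 1.10. The background was high: the quasi-likelihood test of edgeR, with p adjusted by Benjamini-Hochberg, called 41.0% of 12678 genes in this comparison, and 22.4% of the 12678 as lower. The median log2 fold change was -1.71 over the 9 genes and -0.0182 over all genes tested. Against the heterozygous deletion, 5 of the 9 fell (Itga2b, Itgb3, Gp9, Vwf and Treml1), against 42.3% of all genes called and 22.4% called lower. The median over the 9 genes was -1.12 in that comparison, and -0.0497 over all genes. Both comparisons share the homozygous deletion libraries.

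Vwf was measured at 14.1, 33.0 and 30.8 CPM in the flox control (replicates 3, 4 and 5), at 18.5, 16.1 and 14.6 CPM in the heterozygous deletion (replicates 3, 4 and 5), and at 3.82, 2.68 and 5.66 CPM in the homozygous deletion (replicates 2, 3 and 4). The homozygous values lay below every other batch A library. The log2 fold change was -2.73 (SE 0.34, adjusted p = 0.000184) against the flox control and -2.08 (SE 0.33, adjusted p = 0.000699) against the heterozygous deletion, by edgeR.

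The integrin genes of the fibrinogen receptor fell less. Itga2b was at 70.8, 102 and 98.1 CPM in the flox control, at 81.4, 92.9 and 93.3 CPM in the heterozygous deletion and at 54.6, 50.3 and 36.9 CPM in the homozygous deletion. No homozygous value reached the other 2 groups, and the log2 fold change was -0.97 (SE 0.16) in both comparisons, with edgeR adjusted p of 0.000773 and 0.000695. Itgb3 was at 50.6, 74.6 and 71.9 CPM, at 53.6, 54.3 and 51.7 CPM and at 40.6, 39.9 and 44.1 CPM in the same order of groups. Its groups did not overlap with the homozygous deletion either, and it fell by 0.69 (SE 0.13, adjusted p = 0.00166) against the flox control and by 0.41 (SE 0.13, adjusted p = 0.0245) against the heterozygous deletion. The second Itgb3 call did not hold when heterozygous replicate 4 or 5, or homozygous replicate 2 or 3, was left out (adjusted p 0.0713, 0.0515, 0.0707 and 0.0938).

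Gp9, the von Willebrand factor receptor subunit whose promoter holds both motifs, was at 7.69, 8.78 and 10.3 CPM in the flox control. In the heterozygous deletion it was at 8.76, 9.6 and 8.47 CPM. In the homozygous deletion it was at 5.06, 3.96 and 3.76 CPM, below all of these. The log2 fold change was -1.10 (SE 0.16, adjusted p = 0.000429) against the flox control and -1.12 (SE 0.16, adjusted p = 0.000347) against the heterozygous deletion. Treml1 was at 7.36, 13.3 and 13.2 CPM in the flox control, at 9.0, 9.18 and 8.53 CPM in the heterozygous deletion and at 5.30, 2.27 and 2.64 CPM in the homozygous deletion. Its homozygous values were again the lowest, with log2 fold changes of -1.76 (SE 0.31, adjusted p = 0.00142) and -1.44 (SE 0.31, adjusted p = 0.00404).

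The chemokine genes and Gp6 had another pattern, in which the control libraries themselves spread widely. Pf4 was at 9.32, 25.3 and 24.9 CPM in the flox control, at 12.7, 4.31 and 4.15 CPM in the heterozygous deletion and at 7.12, 4.55 and 6.97 CPM in the homozygous deletion. Ppbp was at 3.81, 10.8 and 9.35 CPM, at 3.41, 0.526 and 0.426 CPM and at 0.608, 0.660 and 0.249 CPM in the same order. Heterozygous replicates 4 and 5 thus lay within or below the homozygous range, and heterozygous replicate 3 lay near flox control replicate 3. Gp6 was near the limit of detection, with 17, 54 and 75 counts for the flox control libraries, 31, 3 and 1 for the heterozygous and 5, 0 and 2 for the homozygous ones.

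Against the flox control, Pf4 fell by 1.71 (SE 0.47, adjusted p = 0.0145), Ppbp by 3.97 (SE 0.79, adjusted p = 0.00254) and Gp6 by 4.10 (SE 1.25, adjusted p = 0.0231) on the log2 scale, by edgeR. Homozygous and heterozygous values of all 3 overlapped, and none of the 3 passed the test between those groups: Pf4 differed by -0.22 (SE 0.47, adjusted p = 0.733) and Ppbp by -1.49 (SE 0.77, adjusted p = 0.143). Both differences were positive without heterozygous replicate 3, at 0.487 for Pf4 and 0.0713 for Ppbp. Against the flox control, the Pf4 call was lost without homozygous replicate 3 (adjusted p = 0.0667). The Gp6 call was lost without flox control replicate 4 or 5 or homozygous replicate 3 or 4 (adjusted p from 0.0558 to 0.0873).

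Selp overlapped between all groups of the batch. It was at 3.57, 1.29 and 2.15 CPM in the flox control, at 2.80, 3.42 and 2.61 CPM in the heterozygous deletion and at 3.17, 1.73 and 1.68 CPM in the homozygous deletion.

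**Figure D2:**
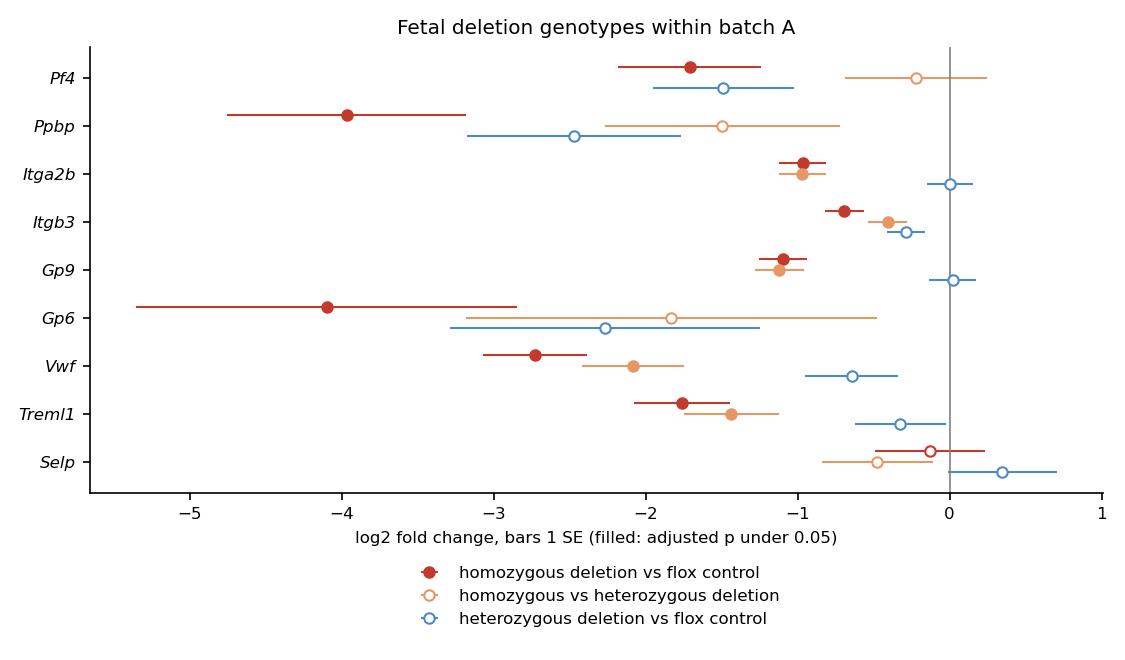
Log2 fold change of each gene between the fetal deletion genotypes of batch A, with bars of 1 SE from edgeR, for 3 libraries per group. Filled points passed an adjusted p of 0.05. All 9 genes lie to the left of 0 in both comparisons of the homozygous deletion. Between the heterozygous deletion and the flox control 6 lie to the left, Pf4, Ppbp and Vwf among them.

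In the heterozygous deletion, no member passed edgeR's test against the flox control, where 0.0316% of all genes tested were called. At an unadjusted p under 0.05 there were 4 of the 9, and DESeq2 called 0. The share of all genes at that unadjusted limit was not counted. The median log2 fold change of the 9 genes was -0.323, against 0.00137 over all genes. Pf4 differed by -1.49 (SE 0.46, adjusted p = 0.385), Ppbp by -2.47 (SE 0.71, adjusted p = 0.364) and Vwf by -0.64 (SE 0.31, adjusted p = 0.596). Without flox control replicate 3, 3 members were called lower, Pf4 (adjusted p = 0.0366) and Vwf (adjusted p = 0.0434) among them. Without heterozygous replicate 3, Ppbp was called (adjusted p = 0.0312).

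Transcripts of liver cells moved with these genes across the batch A libraries. A hepatocyte marker list, of which 10 of 12 genes had a row, summed to 103, 654 and 412 CPM in flox control replicates 3, 4 and 5. It summed to 124, 50.4 and 53.1 CPM in the heterozygous deletion and to 31.6, 19.2 and 11.9 CPM in the homozygous deletion, and no marker was at 0 in a whole group. All 10 markers were called lower between the flox control and the homozygous deletion, and 5 of the 10 against the heterozygous deletion. The libraries with the most hepatocyte RNA were the libraries with the most Pf4, Ppbp and Gp6, whereas Itga2b and Gp9 in the heterozygous deletion lay within the flox control range although 2 of the 3 hepatocyte sums were lower. The Vav1-Cre library of batch A had a hepatocyte sum of 148 CPM, with Pf4 at 11.5, Ppbp at 3.75 and Gp6 at 0.589 CPM. These levels were closer to flox control replicate 3 than to the other 2 controls.

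**Figure D3:**
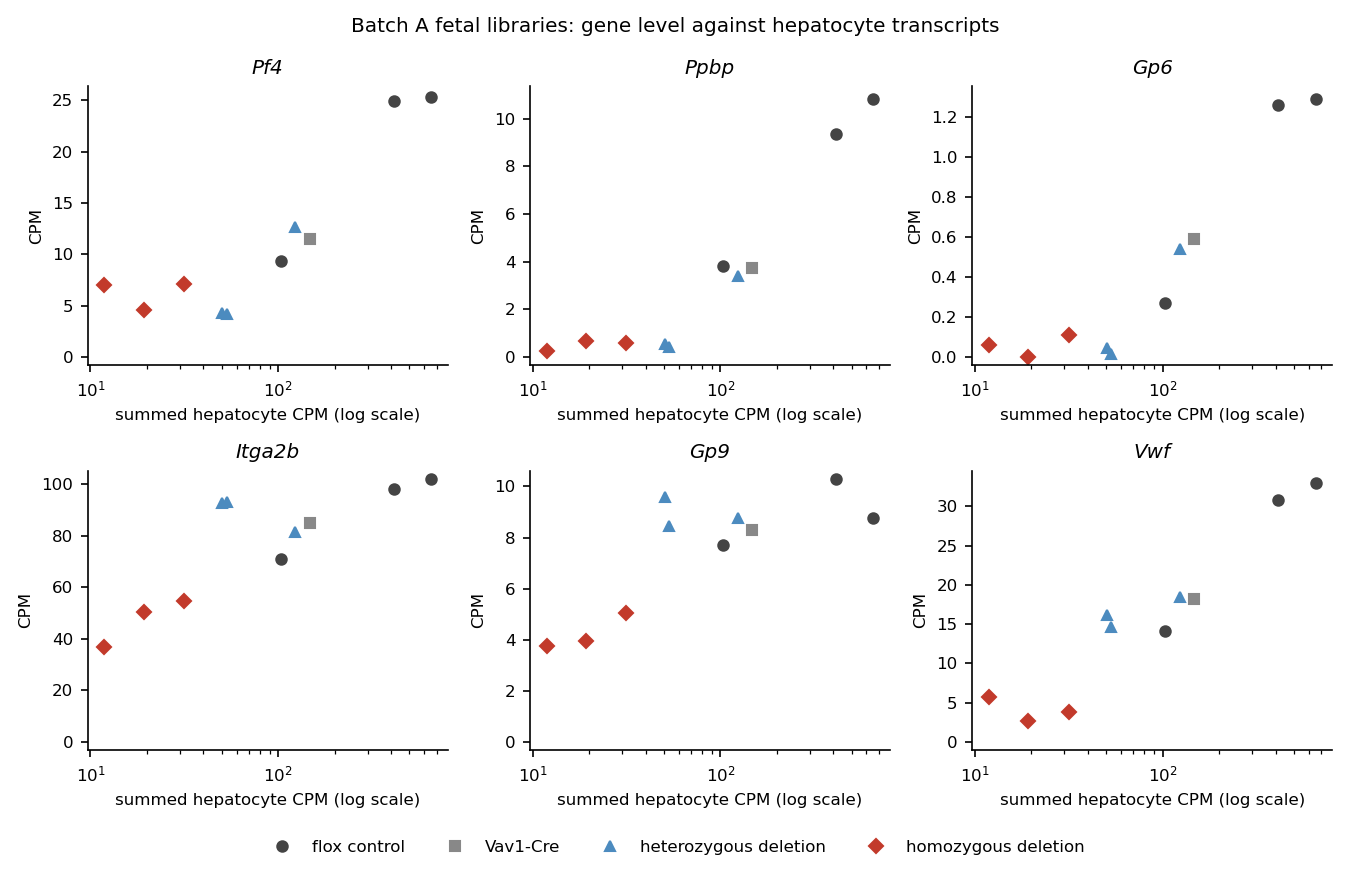
Level of 6 genes in CPM against the summed level of 10 hepatocyte genes in CPM (log scale) in the 10 libraries of batch A, with 1 point per library and symbols for the genotype. Pf4, Ppbp and Gp6 are highest in the 2 flox control libraries with sums of 412 and 654 CPM, and the homozygous deletion libraries are at sums of 31.6 CPM and below.

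The mean log2 level of the hepatocyte list was added to the model, a choice made after seeing the data. With it, edgeR called 1303 of 12678 genes between the homozygous deletion and the flox control, against 5194 without it. Of the members, 0 were called. Over the 8 members called without the covariate, adjusted p then ran from 0.135 (Vwf, log2 fold change -1.69) to 0.871 (Ppbp, -0.312). Of these, Pf4 (0.695) and Gp6 (1.13) changed sign. The hepatocyte sums of the homozygous deletion overlapped with neither other group, so this covariate and the genotype can be told apart only in part. Between the homozygous and heterozygous deletion, Itga2b (-0.663, adjusted p = 0.0103), Gp9 (-0.915, adjusted p = 0.00554) and Vwf (-1.59, adjusted p = 0.0152) passed in the same model, and Itgb3 (adjusted p = 0.344) and Treml1 (adjusted p = 0.0509) did not. With flox control replicates 4 and 5 left out, 5 members were called lower in the homozygous deletion against the remaining control library: Ppbp, Itga2b, Gp9, Vwf and Treml1. Pf4 (-0.619, adjusted p = 0.44), Itgb3 (-0.315, adjusted p = 0.0505) and Gp6 (-2.30, adjusted p = 0.353) did not pass, and that lone control library was assumed to vary like the other groups.

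Markers of other cells moved with the homozygous deletion too. Against the flox control, 8 of 9 macrophage markers, 5 of 6 endothelial markers, all 3 B cell markers and 4 of 7 erythroid markers were called lower, and the remaining macrophage marker, Vcam1, was called higher. The macrophage sum ran from 350 to 392 CPM in the flox control, 248.8 to 277.6 CPM in the heterozygous deletion and 65.4 to 94.9 CPM in the homozygous deletion. The endothelial sum ran from 200 to 208, 200 to 212 and 120 to 164 CPM, and the B cell sum from 18.7 to 58.9, 25.2 to 40.7 and 0.339 to 0.804 CPM, in the same order. The mean log2 CPM of the endothelial list ran from 2.97 to 3.75, 2.58 to 3.36 and 1.58 to 2.17. The erythroid sum ran from 725 to 1203, 435 to 1046 and 508 to 572 CPM. The part of these cells in the lower megakaryocyte transcripts was not tested. In contrast, 4 of 5 neutrophil markers and 3 of 5 mast cell and basophil markers were called higher.

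Other genes of the lineage did not move in 1 direction. A list of 58 further megakaryocyte and platelet genes was written with earlier results of these data known, and 46 had a row. Over all genes tested in the homozygous deletion, 41.0% were called against the flox control and 42.3% against the heterozygous deletion. In each comparison 22.4% were called lower, and the counts by role below have the same background. Of the 46 further genes, 18 fell and 10 rose between the flox control and the homozygous deletion, and 13 fell and 11 rose against the heterozygous deletion. Their median log2 fold changes were -0.268 and -0.239. With the hepatocyte covariate, 7 were called against the flox control (3 higher, 4 lower), and 17 without flox control replicates 4 and 5. In the heterozygous deletion against the flox control none was called by edgeR, and DESeq2 called 4. At an unadjusted p under 0.05 there were 11, and the share of all genes at that limit was not counted. Without flox control replicate 3, 5 were called in that comparison.

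Among platelet receptors, 6 of 12 fell and 2 rose against the flox control. The platelet surface gene Ly6g6f was not counted in any homozygous library, against 0.637 ± 0.235 CPM (SD, n = 3) in the flox control, which makes it at least 9.01-fold lower, and at least 2.01-fold lower than in the heterozygous deletion. Cd36, a scavenger receptor, fell by 2.39 (SE 0.39, adjusted p = 0.000845). Pear1, a receptor of platelet contacts, and P2ry12, an ADP receptor, fell by 1.99 (SE 0.22, adjusted p = 7.98e-05) and 1.80 (SE 0.35, adjusted p = 0.00205) against the heterozygous deletion. Cd9, a tetraspanin of the platelet surface, rose by 0.57 (SE 0.09, adjusted p = 0.000469) against the heterozygous deletion.

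Among granule and secretion genes, 3 of 7 fell and 1 rose against the flox control. F13a1, the A subunit of coagulation factor XIII, which macrophages also make, went from 431 ± 58.3 CPM in the flox control to 80.0 ± 4.86 CPM in the homozygous deletion (SD, n = 3 each), a fall of 2.46 (SE 0.10, adjusted p = 3.13e-07). Srgn, a granule proteoglycan of many blood cells, rose by 0.93 (SE 0.19, adjusted p = 0.00289). Among signalling and lipid genes, 5 of 12 fell and 3 rose. Alox12, a lipoxygenase of platelets, fell by 2.98 (SE 0.71, adjusted p = 0.00676), and the adaptor genes Lat and Lcp2 and the cyclooxygenase gene Ptgs1 rose by 0.87 (SE 0.09), 0.58 (SE 0.14) and 0.66 (SE 0.10), with adjusted p of 6.52e-05, 0.00659 and 0.000489.

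Of 7 cytoskeleton genes, 2 fell and 2 rose against the flox control, and Myl9, a myosin light chain, fell by 4.18 (SE 0.72, adjusted p = 0.00113). Against the heterozygous deletion no cytoskeleton gene fell and 2 rose. Of 8 transcription factor genes, 2 rose and 2 fell against the flox control. Gata2, a GATA factor of stem cells, mast cells and early megakaryocytes, rose by 0.90 (SE 0.05, adjusted p = 2.09e-06), from 261 to 280 CPM in the flox control to 509 to 527 CPM in the homozygous deletion. Gata1, the GATA factor of the red cell and megakaryocyte lineages, had 120 ± 38.7, 111 ± 7.12 and 108 ± 8.28 CPM in the flox control, heterozygous and homozygous deletion (SD, n = 3 each), and its groups overlapped. It was chosen after its values were seen.

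**Figure D4:**
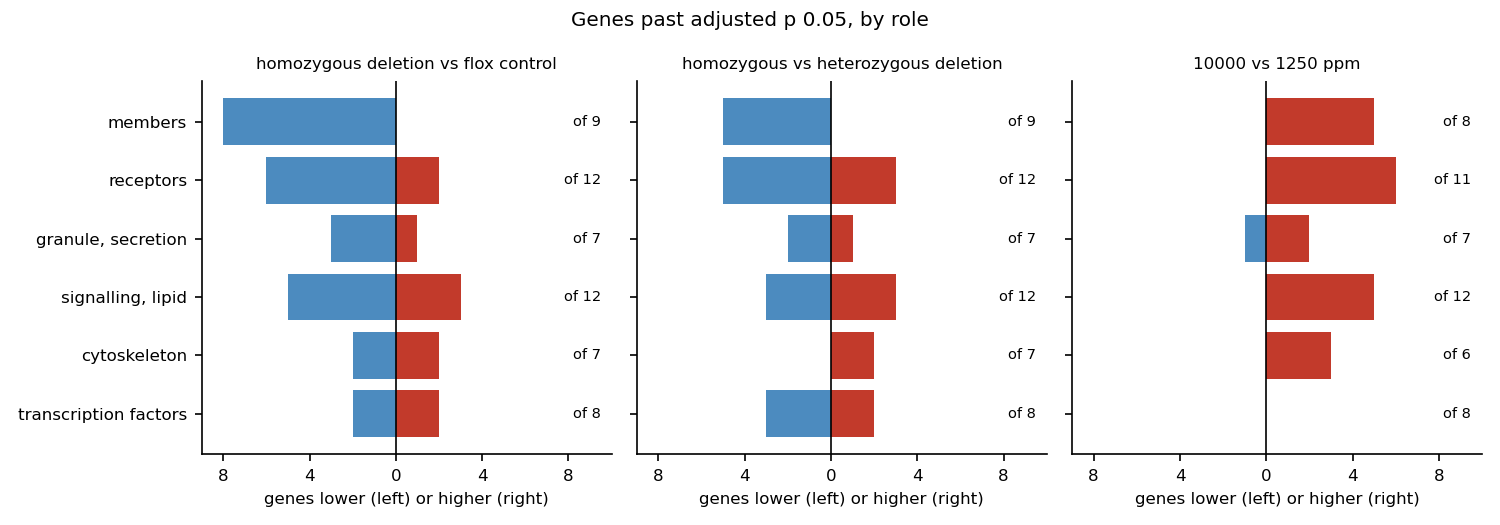
Number of genes that passed an adjusted p of 0.05 by edgeR, lower to the left and higher to the right, for the members and for 5 further groups of megakaryocyte and platelet genes, in 3 comparisons. The number of genes tested stands at the right. The members called went in 1 direction in each comparison, and each of the 5 other groups held lower and higher calls between the homozygous deletion and the flox control.

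In batch B, the S34F genotype could be set beside only 1 Vav1-Cre library, so no test was made. Of the 8 members with a mean of at least 10 counts, 0 lay 2-fold or more from it, in 1 direction, in every S34F library, against 1.01% of 11823 genes. Vwf was at 25.4, 18.7, 19.8 and 21.0 CPM in S34F replicates 1 to 4 and at 12 CPM in the Vav1-Cre library, a difference of 0.65 to 1.10 on the log2 scale. Ppbp was at 0.275, 0.515, 0.382 and 0.549 CPM, from 9 to 31 counts, against 0.122 CPM from 4 counts, a difference of 0.92 to 1.77. Both genes were thus higher in all 4 libraries, at low counts for Ppbp.

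The other members straddled or stayed near the control library. Itga2b was at 100.3, 81.4, 83.4 and 108 CPM against 90.1 CPM, and Gp9 at 9.35, 6.82, 6.35 and 9.56 CPM against 7.0 CPM. Pf4 was at 2.81, 3.35, 1.85 and 2.55 CPM against 2.05 CPM. Itgb3 was lower in all 4, at 32.7, 35.8, 32.4 and 40.2 CPM against 41.3 CPM, by 0.04 to 0.34 on the log2 scale. The hepatocyte sums were 25.0, 39.4, 33.4 and 54.6 CPM against 25.8 CPM. The highest was in replicate 4, where Ppbp was highest, whereas Pf4 was highest in replicate 2.

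In adult marrow, 5 of the 8 members tested rose between the 1250 and 10000 ppm groups: Pf4, Ppbp, Itga2b, Itgb3 and Gp9. Gp6 was too low to be tested. The edgeR background was 18.1% of 13338 genes called, and 7.53% called higher. The median log2 fold change was 1.38 over the 8 genes and 0.0181 over all genes. Over the 3 doses, a slope on log2 of the dose called the same 5 genes as higher, against 10.7% of 12849 genes called and 5.39% called higher, with a median slope of 0.461 per doubling of the dose, against 0.0119 over all genes. The 2 results rest largely on the same libraries.

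Itga2b was at 49.3, 48.0, 35.4 and 25.8 CPM at 1250 ppm (replicates 1, 3, 4 and 5), had a lowest, median and highest level of 42.9, 65.3 and 91.1 CPM at 2500 ppm, and was at 79.9, 130, 53.0 and 178 CPM at 10000 ppm (replicates 1 to 4). All 10000 ppm values lay above all 1250 ppm values, by 1.48 on the log2 scale (SE 0.32, adjusted p = 0.008). The slope was 0.48 per doubling (SE 0.11, adjusted p = 0.021). Its partner Itgb3 was at 32.2, 31.3, 26.5 and 24.0 CPM at 1250 ppm, at 34.1 to 53.3 CPM (median 46.7) at 2500 ppm and at 79.6, 97.0, 46.1 and 44.8 CPM at 10000 ppm. These values did not overlap between the lowest and highest dose, and the rise was 1.24 (SE 0.26, adjusted p = 0.00717).

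Gp9 was at 3.46, 2.55, 2.29 and 1.69 CPM at 1250 ppm, at 2.68 to 5.57 CPM (median 3.58) at 2500 ppm and at 5.51, 8.98, 4.08 and 7.18 CPM at 10000 ppm. It rose by 1.37 (SE 0.29, adjusted p = 0.00684), with no overlap between the outer doses. The Itga2b, Itgb3 and Gp9 calls between 10000 and 1250 ppm held in all 23 alternative settings tried, with the highest adjusted p at 0.0441.

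The chemokine genes rose further but less firmly. Pf4 was at 7.95, 5.20, 5.04 and 3.64 CPM at 1250 ppm, at 3.80 to 14.6 CPM (median 10.2) at 2500 ppm and at 13.7, 27.9, 5.77 and 26.4 CPM at 10000 ppm. Ppbp had 5, 13, 2 and 4 counts at 1250 ppm, 3 to 30 counts at 2500 ppm and 24, 69, 9 and 94 counts at 10000 ppm. Replicate 3 of the highest dose was within the 1250 ppm range for both. Pf4 rose by 1.76 (SE 0.50, adjusted p = 0.0232) and Ppbp by 3.41 (SE 0.92, adjusted p = 0.019) between the outer doses. Leaving out 10000 ppm replicate 2 or 1250 ppm replicate 4 or 5 left 3 members called (Itga2b, Itgb3 and Gp9), with adjusted p of 0.0586 to 0.0749 for Pf4 and 0.0569 to 0.0586 for Ppbp. The Pf4 call was also lost without 1250 ppm replicate 3 (adjusted p = 0.0507), and the Ppbp call without 1250 ppm replicate 1 (adjusted p = 0.0535).

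**Figure D5:**
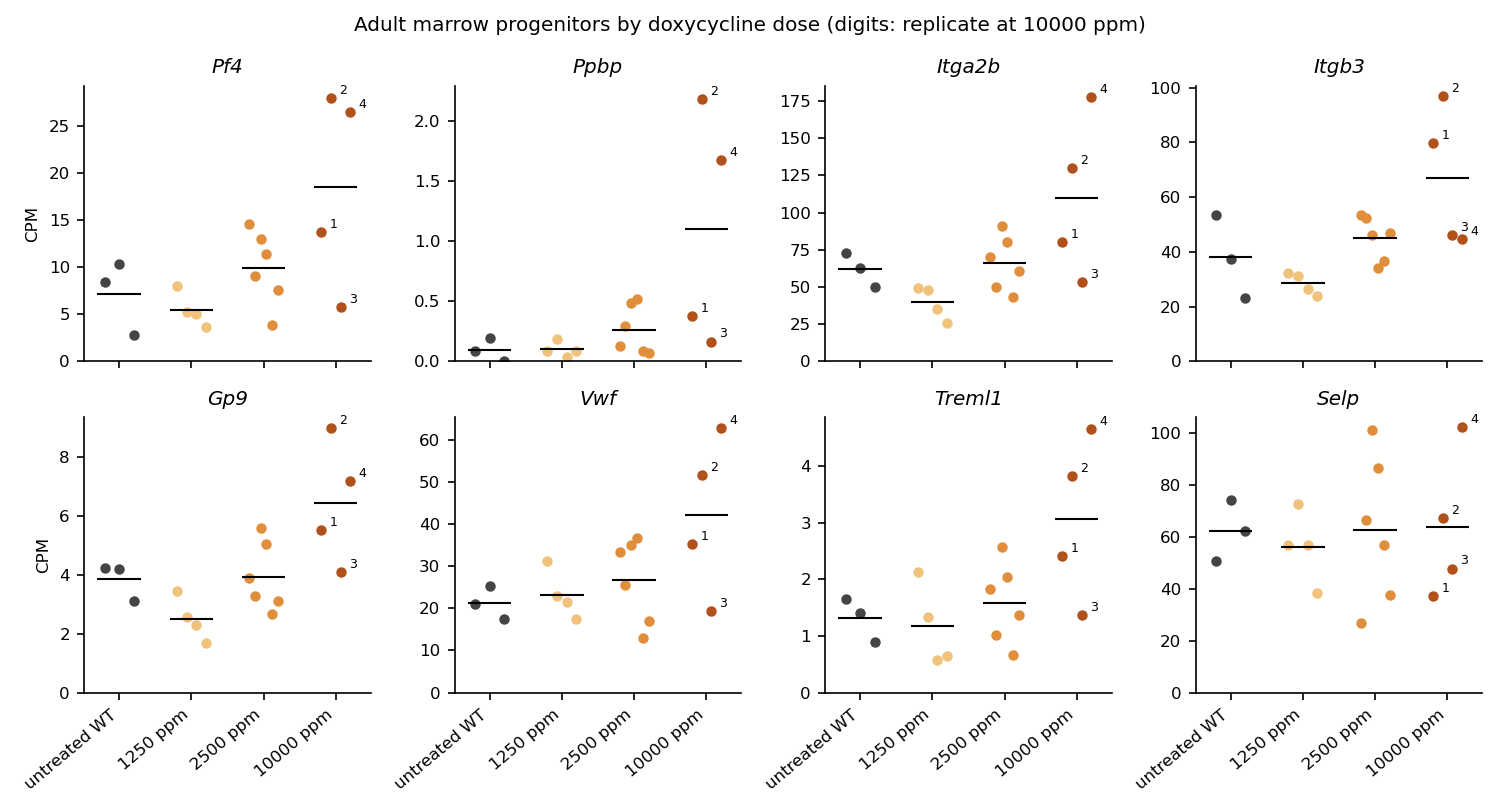
Level in CPM of 8 genes in the 17 adult libraries by doxycycline dose, with 1 point per library and lines at group means, and with replicate numbers at 10000 ppm. For Itga2b, Itgb3 and Gp9 every 10000 ppm library lies above every 1250 ppm library, and replicate 3 is the lowest or close to the lowest of its group except for Selp.

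The slope over dose depended on single libraries more than the comparison of the outer doses did. Without 10000 ppm replicate 2, 0 members were called for the slope by edgeR, with adjusted p of 0.0663 (Itgb3), 0.0815 (Itga2b), 0.0832 (Gp9), 0.0899 (Ppbp) and 0.114 (Pf4). Without 1250 ppm replicate 5, Itgb3 and Gp9 were called. Without 1250 ppm replicate 1, 3 or 4 the Pf4 slope did not pass (adjusted p 0.0549, 0.0616 and 0.0625).

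Vwf and Treml1 did not pass either test by edgeR, whereas DESeq2 called both between the outer doses (adjusted p = 0.0431 and 0.018) and for the slope (adjusted p = 0.0433 and 0.0198). Vwf was at 31.1, 22.9, 21.5 and 17.4 CPM at 1250 ppm, at 12.9 to 36.6 CPM (median 29.5) at 2500 ppm and at 35.2, 51.5, 19.3 and 62.8 CPM at 10000 ppm, a difference of 0.87 between the outer doses (SE 0.35, adjusted p = 0.0929). Treml1 was at 2.12, 1.32, 0.581 and 0.642 CPM, at 0.659 to 2.57 CPM (median 1.60) and at 2.40, 3.82, 1.36 and 4.66 CPM, a difference of 1.39 (SE 0.48, adjusted p = 0.0553). In both, 10000 ppm replicate 3 lay inside the 1250 ppm range, and without it both passed (adjusted p = 0.0237 and 0.0273). Treml1 also passed without 1250 ppm replicate 1 (adjusted p = 0.033) or 2500 ppm replicate 5 (adjusted p = 0.0458). Selp was at 56.6, 72.5, 56.6 and 38.2 CPM at 1250 ppm and at 37.2, 67.1, 47.7 and 102 CPM at 10000 ppm, and the groups overlapped.

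Against untreated WT mice, no member passed edgeR's test at any dose. The background was 1.27% of genes called at 10000 ppm, 0.487% at 2500 ppm and 11.4% at 1250 ppm. At an unadjusted p under 0.05 there were 7 of the 8 members at 10000 ppm and 0 at the other doses, and DESeq2 called 2, 0 and 0. The background shares are at adjusted p, and the share of all genes at the unadjusted limit was not counted. The 3 comparisons share their control libraries. The median log2 fold change of the 8 members was 0.92 at 10000 ppm, 0.258 at 2500 ppm and -0.275 at 1250 ppm, with medians over all genes between 8.75e-05 and 0.00826.

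The untreated WT means of Pf4, Itga2b, Itgb3 and Gp9 lay between those of the outer doses, and the Ppbp mean lay below both. Untreated WT replicate 3 was below every 1250 ppm library for Pf4, Itgb3 and Ppbp. Itga2b was at 73.0, 62.4 and 49.9 CPM in untreated WT, above all 1250 ppm libraries, and differed from them by -0.63 (SE 0.34, adjusted p = 0.219). Gp9 was at 4.23, 4.19 and 3.09 CPM, and the 1250 ppm group differed by -0.62 (SE 0.31, adjusted p = 0.183). Itgb3 was at 53.6, 37.4 and 23.3 CPM, and the 10000 ppm group differed by 0.82 (SE 0.29, adjusted p = 0.116). Pf4 was at 8.42, 10.3 and 2.75 CPM, and the 10000 ppm group differed by 1.37 (SE 0.54, adjusted p = 0.152). Ppbp had 4, 11 and 0 counts, and the 10000 ppm group differed by 3.49 (SE 1.04, adjusted p = 0.0788). Vwf was at 20.9, 25.3 and 17.6 CPM, and the 10000 ppm group differed by 1.0 (SE 0.38, adjusted p = 0.143). Without 10000 ppm replicate 3, Ppbp (adjusted p = 0.0341) and Vwf (adjusted p = 0.0452) passed at that dose.

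Of the 44 further megakaryocyte and platelet genes tested between 1250 and 10000 ppm, 16 rose, 1 fell and the others did not pass, with a median log2 fold change of 0.709. Over all genes tested, 18.1% were called between these doses, and 7.53% as higher. For the slope over dose, 13 further genes rose and 1 fell, against 10.7% of all genes called and 5.39% called higher. Leaving out 1 library brought the 17 calls between the outer doses down to 6 to 10 when it was 10000 ppm replicate 2 or 1250 ppm replicate 1, 4 or 5. The 14 slope calls came down to 2 without 10000 ppm replicate 2, and to 5 to 8 without 10000 ppm replicate 1 or any one of the 1250 ppm libraries.

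By role, 6 of 11 receptor genes, 5 of 12 signalling and lipid genes, 3 of 6 cytoskeleton genes, 2 of 7 granule and secretion genes and 0 of 8 transcription factor genes rose between the outer doses. Clec1b, a receptor for podoplanin, rose by 1.79 (SE 0.55, adjusted p = 0.0347). Trpc6, a calcium channel, rose from 0.783 ± 0.255 to 3.65 ± 0.383 CPM (SD, n = 4 each), by 2.21 (SE 0.37, adjusted p = 0.00336). Tubb1, the platelet tubulin, rose by 2.55 (SE 0.71, adjusted p = 0.0225), and Alox12 by 3.17 (SE 0.99, adjusted p = 0.0369), from group means of 0.088 and 0.037 CPM. Clu, a secreted chaperone that platelets store and other cells also make, stood at 15.4 ± 6.75 and 3.23 ± 1.02 CPM and fell by 2.25 (SE 0.72, adjusted p = 0.0389).

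Against untreated WT, 1 further gene was called at 10000 ppm, 0 at 2500 ppm and 4 at 1250 ppm, of 44 tested. At 2500 ppm, 5 were at an unadjusted p under 0.05 and DESeq2 called 4. For all genes the share at that unadjusted limit was not counted. Cd36 rose at 10000 ppm (log2 fold change 3.6, SE 0.75, adjusted p = 0.0353) and at 1250 ppm (2.85, SE 0.73, adjusted p = 0.0249), from 0.295 ± 0.0738 CPM in untreated WT (SD, n = 3). Macrophages also express Cd36, and 4 of 8 macrophage markers tested were called higher at 1250 ppm, while 3 had negative fold changes. At 2500 and 10000 ppm 0 were called, but the median log2 fold change of the list was alike, at 3.07 and 2.82 against 2.93 at 1250 ppm. The part of macrophages in the Cd36 rise was not tested. The macrophage list summed to 254 to 328 CPM at 1250 ppm and to 516 to 528 CPM in untreated WT, a value that follows its most abundant genes. Its mean log2 CPM went the other way, at 2.1 to 3.93 at 1250 ppm and at 0.5 to 1.23 in untreated WT. Thbs1, thrombospondin of the alpha granules, fell by 5.61 (SE 1.32, adjusted p = 0.0186) at 1250 ppm, to 4.17 ± 3.64 CPM (SD, n = 4), against 9.0 to 564 CPM in the untreated WT libraries. Gng11, a G protein subunit, and Tbxas1, thromboxane synthase, fell by 1.24 (SE 0.28, adjusted p = 0.0156) and 0.91 (SE 0.16, adjusted p = 0.00813). The Cd36 call at 10000 ppm was lost without 10000 ppm replicate 1 or 2, 1250 ppm replicate 3 or any one of the untreated WT libraries. The 4 calls at 1250 ppm came down to 1 or 2 without 1250 ppm replicate 1 or untreated WT replicate 1 or 2.

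Markers of other cells differed between adult libraries as well. The hepatocyte genes Alb, Ttr, Fgb and Fgg were at 0 in every adult library, but the list as a whole was not. It summed to 16.5 to 42.4 CPM over the adult libraries, with a mean log2 CPM of -2.74 to -2.29. Between 1250 and 10000 ppm, edgeR tested 4 of its 10 genes. Apob was called higher (log2 fold change 3.75, adjusted p = 0.0107) and Ambp lower (-2.79, adjusted p = 0.0071). The erythroid sum was 532, 544, 750 and 381 CPM at 1250 ppm and 730, 1031, 815 and 1303 CPM at 10000 ppm (replicates 1 to 4), and 1 of 7 erythroid markers was called higher. The stem cell sum was 36.3, 54.4, 39.9 and 32.8 CPM and 43.4, 58.3, 62.3 and 91.2 CPM, with 1 of 5 called higher. Of 5 neutrophil markers, 2 were called higher between these doses, Ltf (log2 fold change 4.87) and Camp (4.07), and 1 lower, Ctsg (-0.77). No B cell, macrophage or mast cell and basophil marker was called between them. Against untreated WT, all 3 B cell markers were called higher at every dose. Mast cell and basophil markers called lower were 4 of 5 at 1250 ppm, 1 at 2500 ppm and 0 at 10000 ppm. The neutrophil sum of 10000 ppm replicate 4 was 16640 CPM, against 40330 to 47070 CPM in the other 3 libraries of that dose. Replicates 2 and 4, which had the highest Pf4, Ppbp, Itga2b, Gp9, Vwf and Treml1 of that dose, also had its highest erythroid sums. The endothelial sum was 147 to 169 CPM at 1250 ppm and 131 to 235 CPM at 10000 ppm, with 0 of 5 markers called by edgeR. The part of these cells in the rise with dose was not tested.

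The members varied together within adult groups. After subtraction of group means of log2 CPM over the 17 adult libraries, the 28 pairs of the 8 genes had a median Pearson r of 0.715, and 27 were positive. Pf4, Itga2b, Gp9, Vwf and Treml1 each had a median r of 0.84 to 0.86 with the others, against 0.46 for Selp and 0.32 for Itgb3, the lower of which belongs to the subunit partner of Itga2b. In the 9 fetal batch A libraries, the 36 pairs had a median r of 0.405, and Selp had a median of -0.23. These values share libraries and depth and are given as a description.

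The genes most like the mean of the members were found by Pearson r of log2 CPM with that mean, among genes with a mean of at least 50 counts. The members were not scaled before averaging, so those with the widest spread in log2 CPM weighed most. A high r thus need not hold for each member. Group means were not subtracted here, so differences between the groups enter these values. Over the 17 adult libraries the closest of 9602 genes were Cuedc1 (r = 0.941), Fyb (0.937), Mrvi1 (0.914), Pde10a (0.903) and Mfsd6 (0.9). Over the 9 fetal batch A libraries the closest of 9672 genes were Ttr (0.993), H19 (0.985), Fga (0.983), Ambp (0.98) and Stab2 (0.975). Ttr, Fga and Ambp encode proteins that hepatocytes secrete, H19 is an imprinted RNA abundant in fetal liver, and Stab2 is a receptor of liver sinusoidal endothelium.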

How the data were processed

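RNA of sorted progenitors was sequenced as paired reads of 2 × 150 bp from total RNA after ribosomal depletion. The authors mapped reads with HISAT2 2.1.0 to Ensembl GRCm38, per the labels' protocols and design text, and deposited a table of raw counts for 27728 genes in 32 libraries. The counting tool, annotation release and use of strand are not given in the sources used here.

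From these counts, edgeR 4.0.16 (R 4.3.3) was fitted with filterByExpr, TMM factors and quasi-likelihood F tests, separately on the 9 fetal batch A deletion and control libraries, the 17 adult libraries and, for the slope on log2 dose, the 14 dosed libraries. Benjamini-Hochberg adjustment ran over all genes tested, and calls were made at an adjusted p of 0.05. Gene names and exon lengths came from GENCODE M21, and scripts were tested on simulated data. The members and lists were chosen with earlier results of these data known. Outside the members, the 5 genes with the largest fold change among those called in each direction were named for each comparison. A gene that this rule names is not reported here. Alternatives were DESeq2 1.42.0, other scaling factors, filters and dose scales, a replicate block, fits of only the groups compared, all fetal libraries with batch as a covariate, and fits without each library. A hepatocyte covariate and a fit without 2 flox control libraries were added after the data were seen. The S34F libraries had 1 control library in their batch and were compared without a test.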

Additional observations from a re-analysis of the deposited data

Results flagged for a closer look

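Gp6 stood at 0.206 CPM, from 12 counts, in replicate 4 of the 2500 ppm group, far from the other 5 libraries of that group, which lay between 0 and 0.0741 CPM. This was the 1 group of 36 combinations of gene and group examined in which a single library stood so far from the rest. The rule flags about 1 in 20 groups of normally distributed values by chance, so 1 flag among 36 is not more than that. Counts as low as those of Gp6 are not normally distributed, and the rate need not hold for them.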

How the results depend on the processing

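Of 23 member fold changes that passed the test, 6 passed in every alternative run: Itga2b, Itgb3 and Gp9 between 10000 and 1250 ppm, and Itga2b, Gp9 and Vwf between the homozygous and heterozygous deletion. Over 441 alternative values of these 23 fold changes, 50 no longer passed and 2 reversed. The labels do not say whether replicate numbers pair the samples, and the correlations did not settle it. Same-numbered libraries of different groups correlated at -0.161 to 0.143 over 7 fetal pairs and at -0.274 to 0.52 over 19 adult pairs. Libraries with different numbers correlated at -0.168 to 0.14 over 20 fetal pairs and at -0.408 to 0.358 over 87 adult pairs. For each result below, the cause of a change was not tested.

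With the hepatocyte covariate, genes called between the homozygous deletion and the flox control went from 5194 to 1303 and members from 8 to 0, members called against the heterozygous deletion from 5 to 3, and genes called in the heterozygous deletion from 4 to 0. Signs turned for Pf4 (0.695) and Gp6 (1.13) against the flox control and for Pf4 (1.06) and Ppbp (0.559) against the heterozygous deletion. Leaving out 1 library moved the last 2 from -0.489 to 0.487 and from -1.94 to 0.0713, both highest without heterozygous replicate 3. Without flox control replicates 4 and 5 the homozygous deletion had 2718 genes and 5 members called, and the heterozygous deletion 7 genes, with Vwf at 0.243. For the heterozygous deletion, DESeq2 called 119 genes, no filter 230 genes and 2 members, and the replicate block and the fit of only the groups compared 0 genes each. The replicate block also ended the Pf4 (adjusted p = 0.0809) and Gp6 (0.0814) calls against the flox control and the Itgb3 call (0.066) against the heterozygous deletion.

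Against untreated WT, DESeq2 called 1055 genes and 2 members at 10000 ppm, 567 genes at 2500 ppm and 2519 at 1250 ppm. A mean of at least 50 counts gave 87 genes at 10000 ppm and 7 at 2500 ppm, and no filter gave 702 at 1250 ppm. The replicate block gave 1 member at 10000 ppm, 121 genes at 2500 ppm and 438 at 1250 ppm. Fits of only the groups compared gave 1, 4 and 3165 genes in the same order. Between 10000 and 1250 ppm, genes called went from 2420 to 1533 with no filter, to 1184 with the replicate block (3 members) and to 1052 in the fit of only those groups. For the slope over dose, they went from 1376 to 2227 with DESeq2, 2069 with ranked doses and 33 with the replicate block, which left 0 members. A 1.5-fold limit for S34F gave 461 genes and 2 members, against 119 and 0.

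Leaving out 1 library at a time gave 87 to 2240 genes and 0 to 7 members for the slope, and 1118 to 2809 genes and 3 to 7 members between 10000 and 1250 ppm. Against untreated WT it gave 0 to 816 genes and 0 to 2 members at 10000 ppm, 0 to 163 genes and 0 members at 2500 ppm, and 68 to 1860 genes and 0 members at 1250 ppm. It gave 0 to 269 genes and 0 to 3 members for the heterozygous deletion, 3994 to 5589 genes and 6 to 8 members for the homozygous deletion against the flox control, 4048 to 5979 genes and 4 to 5 members against the heterozygous deletion, and 136 to 168 genes and 0 to 1 member for S34F. Depth limits Gp6, with 0 to 12 counts in the adult libraries, and Ppbp at 1250 ppm, with 2 to 13.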
